A study of Mus musculus with 8 samples.

Results

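The nuclear lamins and the LINC (linker of nucleoskeleton and cytoskeleton) genes were followed from spermatocytes to spermatids. Rows of the deposited gene table were taken whose symbol was Lmna, Lmnb1, Lmnb2, Sun1, Sun2, Sun3, Sun5, Syne1 or Syne2. All 9 symbols were found, on 10 of the 56324 gene models in the table, because Syne1 is split into 2 models. The RNA came from testicular germ cells of 12-week-old C57BL/6 males, separated by unit-gravity sedimentation (Sta-put), and 4 spermatocyte and 4 spermatid libraries were analysed. Every library carries the genotype label Sam68 -/-, a knockout of the RNA-binding protein encoded by Khdrbs1, so both groups share that genotype and no wild-type library enters a comparison. The labels do not say how many animals stand behind a group or whether its libraries are separate preparations, so p-values measure the spread among these libraries, part of which may be technical.

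Lamins form the filament meshwork under the inner nuclear membrane. SUN-domain proteins span that membrane and bind, in the space between both membranes, the KASH-domain proteins of the outer membrane, of which the nesprins encoded by the Syne genes are the largest. In meiotic prophase such bridges hold telomeres at the nuclear envelope and carry cytoskeletal force to chromosomes, and in spermatids, in which the nucleus is reshaped, other SUN proteins line the side of the manchette and the site where the tail is implanted. Shorter germline products are known in the mouse for both lamin families, lamin C2 from Lmna in spermatocytes and lamin B3 from Lmnb2 in spermatids.

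Windows of 250 bases upstream of annotated starts are shown for the members with the largest rises and the largest fall, Lmnb2, Sun5, Sun3 and Sun2, and for the internal start of Lmna, because Lmna and Lmnb2 each have a short annotated transcript that begins inside the gene. They are from RefSeq on GRCm38.p6, are written 5′ to 3′ on the strand of the gene, and end at the base before the start. In capitals are matches on either strand to the CCAAT box (CCAAT), the GC box (GGGCGG), the TATA box (TATAAA), the nuclear receptor motif AGGTCA, the cAMP response element (TGACGTCA) and its shorter core TGACG, which lies within the full element.
Lmnb2, upstream start, chr10:80918246-80918495, minus strand: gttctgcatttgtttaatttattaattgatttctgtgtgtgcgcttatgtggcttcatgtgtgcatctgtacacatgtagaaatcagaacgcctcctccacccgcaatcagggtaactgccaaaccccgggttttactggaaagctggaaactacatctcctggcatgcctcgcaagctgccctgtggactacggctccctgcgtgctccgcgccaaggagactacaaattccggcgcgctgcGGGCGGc
Lmnb2, internal start, chr10:80906413-80906662, minus strand: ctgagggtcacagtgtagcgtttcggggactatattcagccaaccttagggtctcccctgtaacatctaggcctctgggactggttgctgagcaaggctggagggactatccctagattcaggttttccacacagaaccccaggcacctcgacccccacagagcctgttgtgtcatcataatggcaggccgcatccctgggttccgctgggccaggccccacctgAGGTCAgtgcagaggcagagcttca
Sun5, chr2:153871085-153871334, minus strand: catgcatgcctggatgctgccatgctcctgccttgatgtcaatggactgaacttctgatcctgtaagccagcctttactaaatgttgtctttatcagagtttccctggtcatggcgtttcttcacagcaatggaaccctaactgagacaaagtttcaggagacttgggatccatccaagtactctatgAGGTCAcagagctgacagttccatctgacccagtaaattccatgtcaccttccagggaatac
Sun3, internal start, chr11:9039592-9039841, minus strand: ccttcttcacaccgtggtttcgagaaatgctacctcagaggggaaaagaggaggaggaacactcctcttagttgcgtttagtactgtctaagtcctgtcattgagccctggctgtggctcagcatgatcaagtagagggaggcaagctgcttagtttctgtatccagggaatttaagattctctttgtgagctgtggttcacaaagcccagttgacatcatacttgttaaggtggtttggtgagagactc
Sun2, chr15:79742537-79742786, minus strand: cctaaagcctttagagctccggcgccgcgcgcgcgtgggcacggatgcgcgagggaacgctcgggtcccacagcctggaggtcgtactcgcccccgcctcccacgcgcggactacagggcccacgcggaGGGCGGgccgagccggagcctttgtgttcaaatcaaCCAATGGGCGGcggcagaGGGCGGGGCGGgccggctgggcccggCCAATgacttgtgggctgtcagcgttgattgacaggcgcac
Lmna, internal start, chr3:88493313-88493562, minus strand: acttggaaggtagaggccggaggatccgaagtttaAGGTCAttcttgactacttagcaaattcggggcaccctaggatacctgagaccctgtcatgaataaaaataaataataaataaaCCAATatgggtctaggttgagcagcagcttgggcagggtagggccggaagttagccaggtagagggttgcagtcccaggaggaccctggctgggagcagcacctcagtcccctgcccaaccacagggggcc

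The Sun2 window is 70.8% G and C and holds 31 CpG dinucleotides, with 4 GC boxes, some of which overlap, and 2 CCAAT boxes. The Sun5 window is 46.8% G and C with 1 CpG, and the Sun3 window shown is 47.2% with 3. The window of the upstream Sun3 start, which is not printed, is 58.4% with 10 CpG and 1 CCAAT box. Over 32851 windows of the same length the median was 52.4% G and C and 6 CpG. The Lmnb2 windows are 52.8% with 14 CpG for the upstream start and 58.0% with 5 for the internal one. The nuclear receptor motif occurs in the Sun5 window, in the internal Lmnb2 window and in the internal Lmna window. It also occurs in a Syne1 window that is not shown, and in 14% of all windows. The GC box occurs in 32.7% of all windows, the CCAAT box in 33.8%, the TATA box in 12.4% and the core TGACG in 17.8%. The full cAMP response element is in none of the 14 windows of 8 member symbols and in 1.55% of all windows; it is in the window of Spag4, the gene of SUN4, which is not a member. These matches are descriptions of letters and were not tested for binding.

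Recovered read totals lay between 49000266 and 93975960 per library. Values below are the deposited normalized counts, reads divided by a size factor of the library, and 3 reads correspond to between 2.42 and 4.50 normalized counts. For Khdrbs1 the spermatocyte libraries had 3808, 3421, 4319 and 4985 normalized counts and the spermatid libraries 651.1, 625.2, 854.2 and 1129. The table does not separate deleted from remaining exons of Khdrbs1, and with a single genotype at hand the genotype label was not checked by this level. All 9 spermatid markers were higher in spermatids, with summed levels of 508073 to 606005 against 18029 to 33005. Of 9 spermatocyte markers, 3 were lower in spermatids, 2 were higher and 4 were not called, and Sycp1 stood at 1653 in spermatocyte library 4 against 12680 to 26690 in the others. All 12 Sertoli cell markers were lower in spermatids, and their sum ran from 32423 to 165426 in spermatocyte libraries, highest in library 3, against 2753 to 8562. All 6 Leydig cell markers were lower too, with sums of 3621 to 7352 against 195 to 1161. Of 8 macrophage and leukocyte markers tested, 7 were higher in spermatids. The sums of the macrophage and blood list, which also holds hemoglobin genes that were not tested, were 161 to 193 against 2855 to 5803. The hemoglobin gene Hba-a1 was at 0 in 7 of the 8 libraries. Of 6 peritubular myoid markers, 5 were higher in spermatids, of 4 endothelial markers 2 were higher and 1 lower, and of 8 spermatogonial markers 3 were higher.

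All 10 member models passed the filter on low values. Of these, 5 were higher in spermatids, Lmna, Lmnb2, Sun3, Sun5 and the 5' model of Syne1, and 2 were lower, Lmnb1 and Sun2. The other 3, Sun1, Syne2 and the 3' model of Syne1, were not called. A call needed a Benjamini-Hochberg adjusted p below 0.05 over the 28735 models tested with limma and a log2 fold change of at least 1 in size. By that rule 32.5% of all tested models were higher and 29.8% lower, 62.3% in either direction together, and a count of 7 called among 10 is near that background. The groups did not overlap for 4 members that were higher and 2 that were lower, where 34.2% and 32.2% of all models had no overlap in those directions. The counts moved with the scaling of the libraries. With equal total reads 3 members were higher and 2 lower, where 27.8% and 37.4% of all models were, and with quantile normalization the members' counts were the same, where the shares were 29.1% and 36.3%. A correction for GC content could be made for only 17975 of the tested models. With it 5 members were higher and 1 lower, where 37.5% (6748) and 19.2% (3458) of those models were. In the same models without correction 5 members were higher and 2 lower, where 6374 and 3792 models were. These shares thus differ from those above mainly through which models were tested. In the deposited scaling the median log2 fold change was 0.66 over the 10 models and -0.01 over all tested models. What follows is therefore about which members moved, in which direction and by how much. In bulk RNA, fewer cells of a type and less RNA per cell cannot be told apart.

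**Figure D1:**
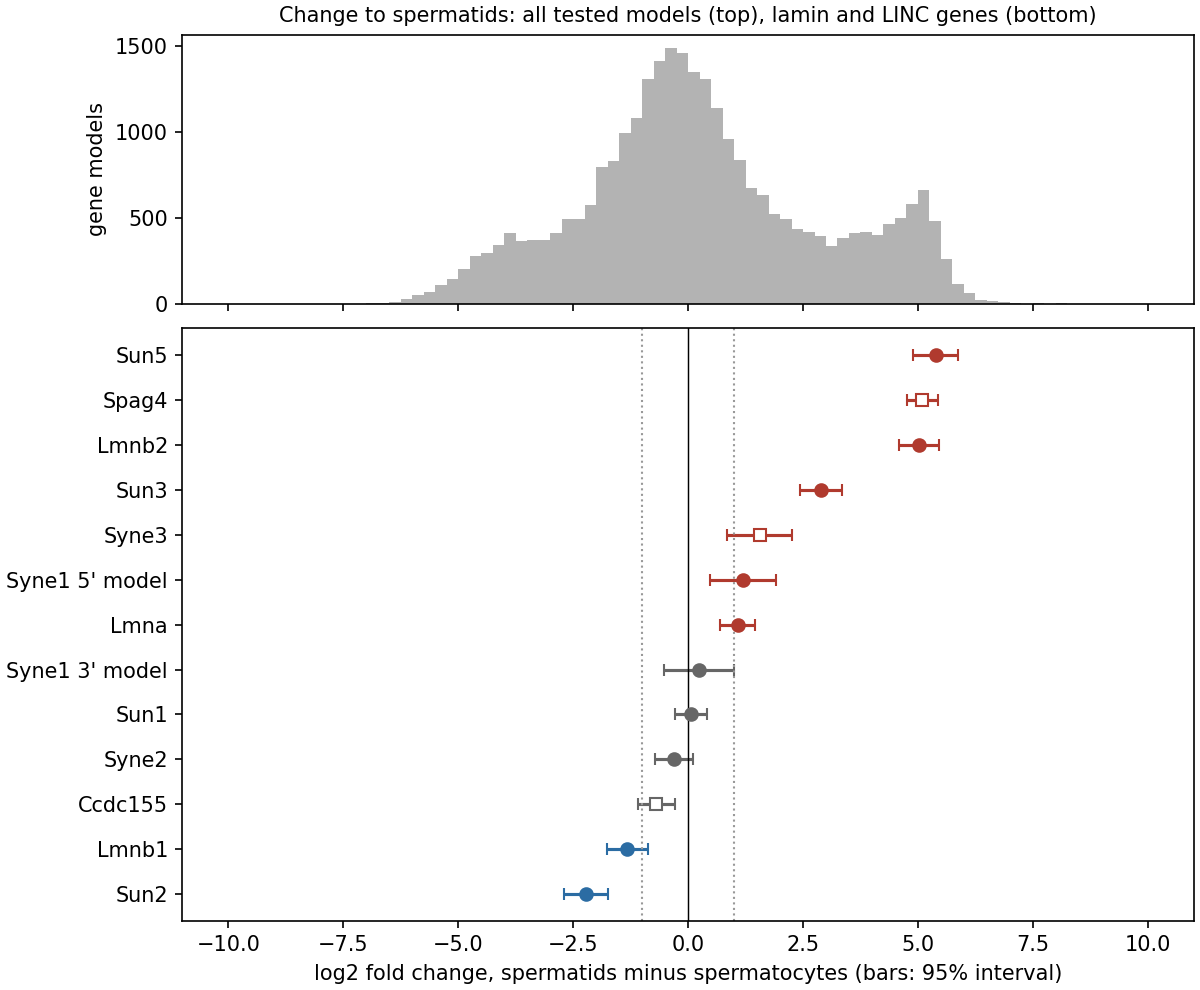
The upper panel is a histogram of the log2 fold change of all 28735 tested models, and the lower panel gives the lamin and LINC genes with 95% intervals from limma (filled circles, members; open squares, Spag4, Syne3 and Ccdc155; red, higher; blue, lower; grey, not called; dotted lines, a log2 change of 1 in size). Sun5, Spag4 and Lmnb2 lie in the right-hand mode of the histogram near 5, and Sun2 at -2.23 is the lowest of the genes drawn.

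Lmnb2, which encodes lamin B2 and the spermatid product lamin B3, had the largest change among the lamins. It spans chr10:80901364-80918245 of mm10 on the minus strand. Spermatocyte libraries 1 to 4 had 527.9, 431.8, 643 and 459 normalized counts, and spermatid libraries 1 to 4 had 13459, 15052, 21106 and 17695. Every spermatid library lay far above every spermatocyte library, and the highest value of each group was in its library 3. Libraries were numbered within each group in the order of the sample list, so a shared number does not pair libraries. The mean rose 32.7-fold, from 515.4 ± 94.2 to 16828 ± 3344 (SD, n = 4 each), with a log2 fold change of 5.02 ± 0.20 (SE, 95% interval 4.59 to 5.45, limma adjusted p = 1.2e-09). This was above 94.4% of the fold changes of all tested models. Spermatid markers also had counts in spermatocyte libraries, with sums of 18029 to 33005 against 508073 to 606005 in spermatids. The part of spermatid RNA in the spermatocyte values of Lmnb2 was not tested. The table gives 1 value for the gene, so the full-length transcript, which starts at base 80918245, and the annotated transcript of 1643 bases that starts inside the gene at 80906412 were not separated.

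Lmnb1, the gene of lamin B1, went the other way. It lies at chr18:56707812-56753422. Spermatocyte libraries had 1788, 2076, 3067 and 2297 normalized counts and spermatid libraries 1086, 845.7, 872.2 and 832.6. The groups did not overlap, although library 1 of the spermatids stood apart from the other 3. The mean fell 2.54-fold, from 2307 ± 548 to 909.2 ± 119 (SD, n = 4 each), with a log2 fold change of -1.32 ± 0.20 (SE, 95% interval -1.76 to -0.88, limma adjusted p = 7.6e-05). Its highest spermatocyte value was in library 3, which also had the highest Sertoli marker sum. Without spermatocyte libraries 3 and 4 the log2 fold change was -1.09, and with a correction for GC content it was -0.97, under the fold threshold, or -1.35 relative to the median of all models. The part of Sertoli RNA in this fall was not tested.

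Lmna, the gene of the A-type lamins A and C and of the meiotic lamin C2, spans chr3:88481149-88503352 on the minus strand. Spermatocyte libraries had 1206, 976.5, 1100 and 1404 normalized counts and spermatid libraries 2370, 2238, 2521 and 2696. All spermatid values were above all spermatocyte values, and the spread within each group was small. The mean rose 2.1-fold, from 1172 ± 181 to 2456 ± 197 (SD, n = 4 each), with a log2 fold change of 1.08 ± 0.17 (SE, 95% interval 0.70 to 1.45, limma adjusted p = 1.2e-04). This lies just past the fold threshold, and the call was lost with libraries scaled to equal total reads (0.64), with quantile normalization (0.73) and without spermatocyte library 2 (0.99). As with Lmnb2, the transcript of 1536 bases that starts inside the gene at 88493312 was not counted apart from the longer ones. Macrophage and leukocyte markers moved in the same direction. The sums of the macrophage and blood list went from 161 to 193 to 2855 to 5803. The hemoglobin genes of that list were too low to be tested. Of 6 peritubular myoid markers 5 were also higher, of 8 spermatogonial markers 3, and of 4 endothelial markers 2 were higher and 1 lower. All 12 Sertoli and all 6 Leydig cell markers were lower. The part of any of these cells in the Lmna values was not tested.

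Set against each other per kilobase of their longest coding transcript, the lamins changed places. In spermatocytes Lmnb1 had the highest level per kilobase, 812 ± 193 normalized counts, followed by Lmna with 371 ± 57.4 and Lmnb2 with 153 ± 27.9. In spermatids the order was Lmnb2 with 4993 ± 992, Lmna with 778 ± 62.5 and Lmnb1 with 320 ± 42 (SD, n = 4 each). Within each cell type, none of these 3 ranges over libraries overlapped. As a share of the summed lamin level per kilobase, Lmnb2 went from 11.5% ± 1.52 to 81.6% ± 2.91, Lmnb1 from 60.3% ± 5.52 to 5.41% ± 1.46, and Lmna from 28.2% ± 5.24 to 13% ± 1.58 (SD, n = 4 each). The sum itself was 4.56-fold higher in spermatids. A use of the short transcripts would raise the level per kilobase of their gene, which the table cannot show.

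**Figure D2:**
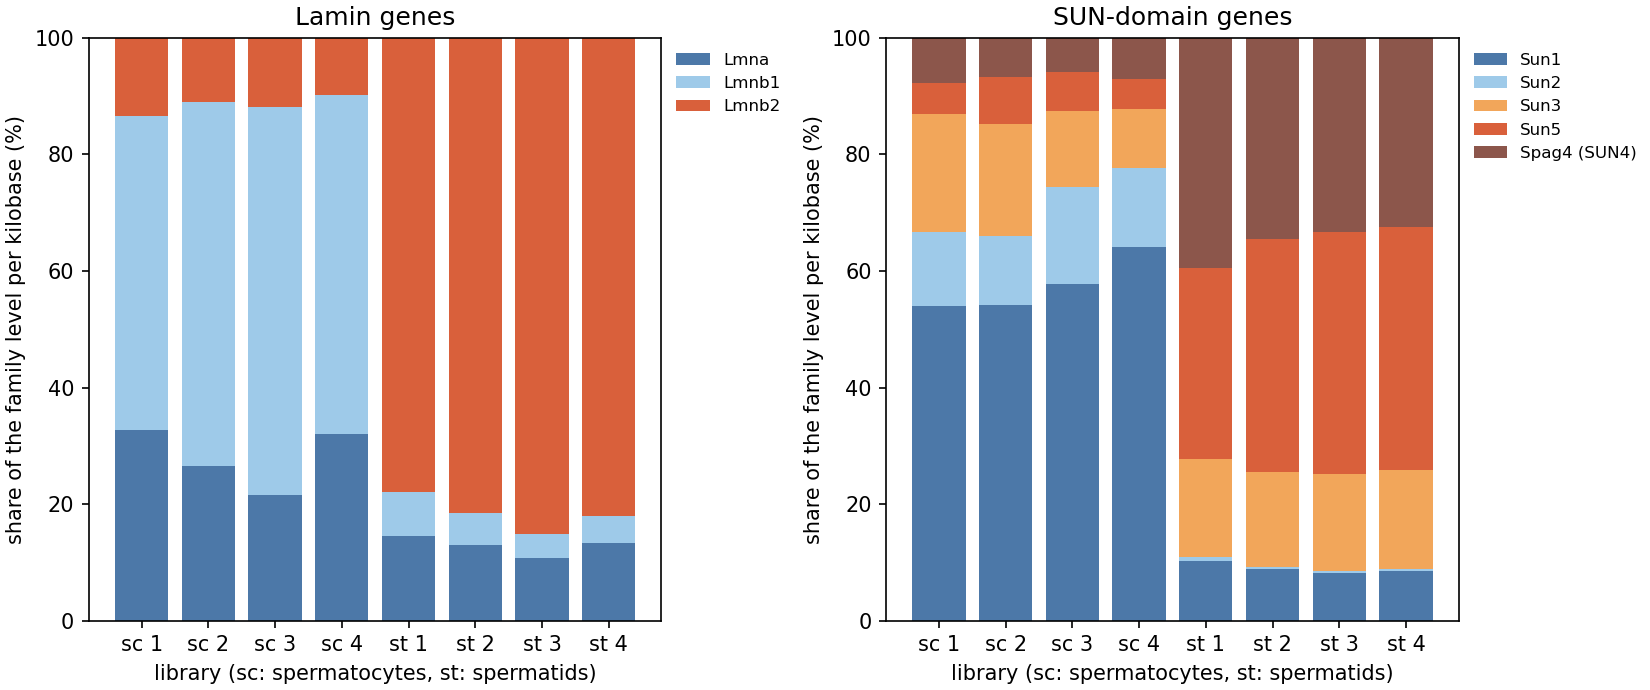
Stacked bars give, for each library, the share of every lamin gene (left) and every SUN-domain gene (right) in the summed level per kilobase of its family, in percent; sc and st are spermatocyte and spermatid libraries 1 to 4. Lmnb2 fills between 77.9% and 85% of the lamin bars in spermatids, and Sun5 and Spag4 fill most of the SUN bars there.

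Of the SUN-domain genes, Sun5 had the largest rise. SUN5 sits at the implantation site of the sperm tail, and its loss in mice and men leaves sperm without heads. Sun5 spans chr2:153856190-153871084 on the minus strand. Spermatocyte libraries had 344.9, 523.1, 499.8 and 380.2 normalized counts and spermatid libraries 12419, 18340, 22554 and 20582. Spermatid library 1 was the lowest of its group and still far above every spermatocyte library. The mean rose 42.3-fold, from 437 ± 87.7 to 18474 ± 4388 (SD, n = 4 each). The log2 fold change was 5.39 ± 0.22 (SE, 95% interval 4.90 to 5.87, limma adjusted p = 1.6e-09), above 97.6% of all tested models. As with Lmnb2, the part of spermatid RNA in the spermatocyte values was not tested.

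Sun3, whose protein is found in the nuclear envelope of spermatids on the side facing the manchette, rose by less. It spans chr11:9016054-9048992 on the minus strand. Spermatocyte libraries had 1349, 1304, 1030 and 769.5 normalized counts and spermatid libraries 6639, 7771, 9380 and 8689. The groups were well apart, and the lowest spermatocyte value was in library 4. The mean rose 7.29-fold, from 1113 ± 269 to 8119 ± 1187 (SD, n = 4 each), with a log2 fold change of 2.89 ± 0.21 (SE, 95% interval 2.43 to 3.35, limma adjusted p = 1.4e-07). The first 403 bases of the model overlap Gm11992, which is transcribed from the other strand and had 2912 to 5856 normalized counts in spermatocytes and 3146 to 5090 in spermatids. Whether the counting used strand is not given in the sources used here, so reads in that overlap cannot be assigned with certainty.

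Sun2, a widely expressed SUN gene whose protein is found with SUN1 at meiotic telomere attachment sites, had the largest fall of the members. It spans chr15:79724068-79742537 on the minus strand. Spermatocyte libraries had 2693, 2530, 4152 and 3281 normalized counts and spermatid libraries 907.2, 564.4, 662 and 564.9. The groups did not overlap, with library 3 the highest of the spermatocytes and library 1 of the spermatids. The mean fell 4.69-fold, from 3164 ± 733 to 674.6 ± 162 (SD, n = 4 each), with a log2 fold change of -2.23 ± 0.22 (SE, 95% interval -2.71 to -1.74, limma adjusted p = 2.0e-06). Without spermatocyte libraries 3 and 4, of which library 3 had the highest Sertoli marker sum, it was -1.98. An antisense model within Sun2, named Gm16575 in GENCODE, had 80.5 to 178 normalized counts in spermatocytes and 45.7 to 69.1 in spermatids.

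Sun1, whose protein anchors meiotic telomeres and is required for their attachment in mice, was the most abundant member per kilobase in spermatocytes, and it was not called. It spans chr5:139200637-139249839. Spermatocyte libraries had 12402, 12602, 15610 and 16771 normalized counts and spermatid libraries 13863, 14581, 16053 and 15116. The spermatid values lay inside the range of the spermatocyte values. The means were 14346 ± 2184 and 14903 ± 922 (SD, n = 4 each), with a log2 fold change of 0.07 ± 0.16 (SE, limma adjusted p = 0.73) and a 95% interval of -0.29 to 0.42. The sign depended on the scaling, since it was -0.37 with equal total reads and -0.52 with quantile normalization (limma adjusted p = 0.05 and 0.012), which also moved the median of all models to -0.442 and -0.364. An antisense model inside Sun1, named 4930520M14Rik in GENCODE, had 6.8 to 15.7 normalized counts in spermatocytes and 208.7 to 366.3 in spermatids.

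**Figure D3:**
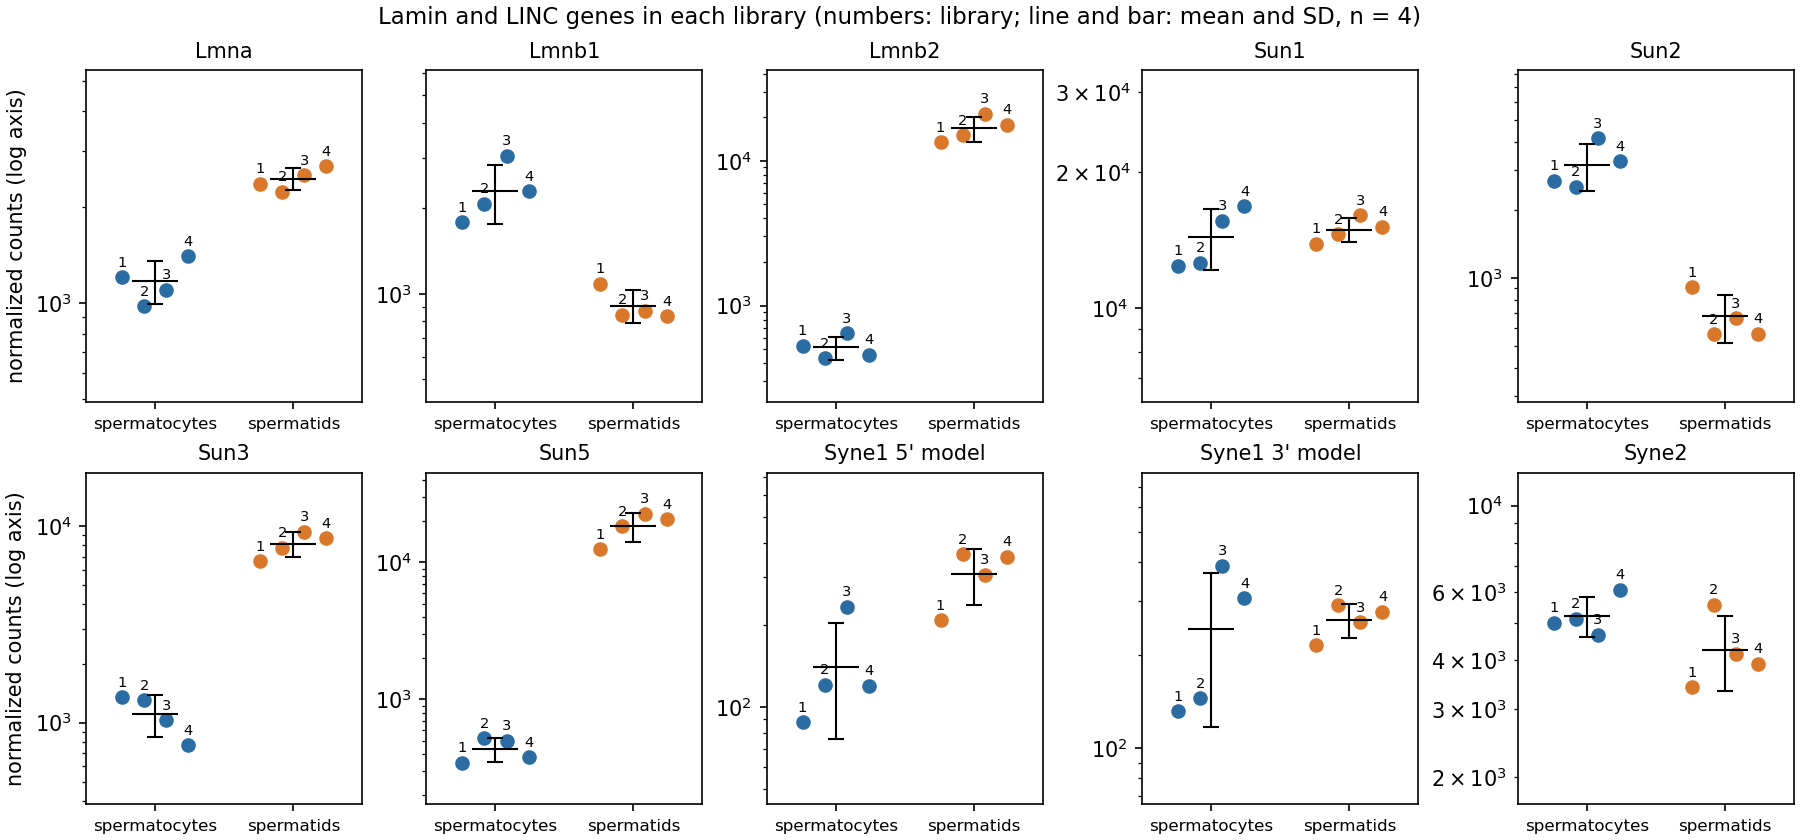
Normalized counts of the 10 member models in each library (points, numbered by library; logarithmic axes, which differ between panels), with the mean and SD of the 4 libraries of each cell type. Lmna, Lmnb2, Sun3 and Sun5 have all spermatid points above all spermatocyte points, Lmnb1 and Sun2 have them below, and the points of Sun1, Syne2 and both Syne1 models overlap.

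Spag4, the gene of SUN4 and the remaining SUN gene of the testis, is not a member and was measured beside them. Its mean went from 605 ± 45.1 to 20690 ± 1736 normalized counts (SD, n = 4 each), with a log2 fold change of 5.09 ± 0.15 (SE, limma adjusted p = 9.5e-10). With Spag4 included, the summed level per kilobase of the 5 SUN genes was 6.74-fold higher in spermatids. In spermatocytes Sun1 made up 57.5% ± 4.72 of that sum, Sun3 15.6% ± 4.86, Sun2 13.7% ± 2.11, Spag4 6.86% ± 0.726 and Sun5 6.31% ± 1.32. In spermatids Sun5 made up 39% ± 4.18, Spag4 34.9% ± 3.06, Sun3 16.6% ± 0.287, Sun1 8.98% ± 0.877 and Sun2 0.455% ± 0.183 (SD, n = 4 each). Sun3 thus kept nearly the same share while its level rose, and Sun1 kept nearly the same level while its share fell. With the union of all annotated exons as length, Sun5 would be 53.8% and Spag4 15.8% in spermatids, so the order of those 2 genes hangs on the transcript taken.

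Of the nesprin genes, Syne2, which encodes nesprin-2, a giant outer nuclear membrane protein that binds actin, spans chr12:75818317-76110900. Spermatocyte libraries had 4992, 5111, 4651 and 6082 normalized counts and spermatid libraries 3411, 5564, 4161 and 3916. The groups overlapped because spermatid library 2 was above 3 of the spermatocyte libraries. The means were 5209 ± 614 and 4263 ± 922 (SD, n = 4 each), with a log2 fold change of -0.31 ± 0.19 (SE, 95% interval -0.71 to 0.10, limma adjusted p = 0.16), which was not called. It was -0.74 with equal total reads and -0.77 with quantile normalization (limma adjusted p = 0.0011 and 4.9e-04), past the p threshold but under the fold threshold, and -0.10 with GC correction (limma adjusted p = 0.63). Relative to the median of all models these were -0.30, -0.40 and -0.48.

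Syne1 encodes nesprin-1, which like nesprin-2 joins the nuclear envelope to actin through very long products, and also shorter products that hold only its C-terminal part with the KASH domain. The table has a model over its 5' part, chr10:5326502-5551483, and a model over its 3' part, chr10:5020201-5194707, both on the minus strand, and the stretch between them belongs to neither. For the 5' model spermatocyte libraries had 87.85, 120.7, 233.7 and 119.9 normalized counts and spermatid libraries 208.7, 364.5, 306.2 and 357. Spermatocyte library 3 was above spermatid library 1, so the groups overlapped. The mean went from 140.5 ± 64 to 309.1 ± 71.8 (SD, n = 4 each), with a log2 fold change of 1.20 ± 0.33 (SE, 95% interval 0.48 to 1.91, limma adjusted p = 0.0055), and the model was called higher. The call was lost with equal total reads (0.76) and with quantile normalization (0.80).

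For the 3' model of Syne1 spermatocyte libraries had 132.2, 145.2, 389.1 and 306 normalized counts and spermatid libraries 215.8, 290.6, 255.2 and 276.5. The spermatocyte libraries formed a low pair and a high pair, with all spermatid libraries between them. The means were 243.1 ± 125 and 259.5 ± 32.6 (SD, n = 4 each), with a log2 fold change of 0.24 ± 0.35 (SE, 95% interval -0.52 to 1.00, limma adjusted p = 0.55), which was not called. Without spermatocyte libraries 3 and 4, the high pair, it was 0.89 (limma adjusted p = 0.006), still under the fold threshold, while the 5' model was then at 1.54. The log2 ratio of the 5' to the 3' model was -0.58, -0.26, -0.73 and -1.34 in spermatocyte libraries and -0.05, 0.33, 0.26 and 0.37 in spermatid libraries. It was higher in every spermatid library than in every spermatocyte library, a ratio chosen after its values were seen and given with no test. Both Syne1 models, Sun2, Lmnb1 and Lmnb2, and Syne3, were highest, among spermatocytes, in library 3, where Sertoli markers were also highest, and the part of Sertoli RNA in these values was not tested.

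Per kilobase the Syne1 models were the lowest members, and Syne2 ranked just above them and 1 other member in each cell type. Syne2 had 240 ± 28.3 normalized counts per kilobase in spermatocytes and 197 ± 42.5 in spermatids. The 5' model of Syne1 had 24.2 ± 11 and 53.3 ± 12.4, and the 3' model 23.9 ± 12.3 and 25.5 ± 3.2 (SD, n = 4 each). Syne3, the gene of nesprin-3, which binds plectin and is not a member, was called higher in spermatids, at 189.3 ± 34.7 normalized counts after 66.82 ± 27.8 (log2 fold change 1.56 ± 0.33, SE, limma adjusted p = 9.2e-04). The nesprin level per kilobase was summed over Syne2, Syne3 and both models of Syne1, so Syne1 entered by 2 levels. That sum changed 1.03-fold, against 6.74-fold for the SUN genes. The direction of so small a change hangs on how Syne1 is counted. These 2 sums were not tested against each other. Ccdc155, the gene of KASH5, the KASH partner of SUN1 in meiosis, averaged 15032 ± 2250 normalized counts in spermatocytes against 9330 ± 1598 in spermatids. Its groups did not overlap, and its log2 fold change of -0.69 ± 0.18 (SE, limma adjusted p = 0.0046) was under the fold threshold, so it was not called.

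Placed in 1 order per kilobase, the members ranked differently in the 2 cell types. In spermatocytes Sun1 was first with 3471 ± 528, and its library range did not overlap that of the next. Sun3, Sun2 and Lmnb1 followed with 924, 832 and 812, and their ranges overlapped each other. Sun5 and Lmna, with 378 and 371, also overlapped, and below them came Syne2 with 240, Lmnb2 with 153 and the Syne1 models. In spermatids Sun5 was first with 15995 ± 3799, above Sun3 with 6738 ± 985 and Lmnb2 with 4993 ± 992, whose ranges overlapped. Sun1 came next with 3606 ± 223, then Lmna with 778 and Lmnb1 with 320, each apart from its neighbours. Syne2 with 197 and Sun2 with 177 overlapped, and the Syne1 models were last. Sun5 thus went from rank 5 to rank 1 and Lmnb2 from rank 8 to rank 3 of the 10 models, while Sun2 went from rank 3 to rank 8. The ranks of Sun5 and Lmnb2 in spermatocytes include any spermatid RNA in those libraries, which was not tested.

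Ratios between members within a library do not depend on its scaling, and 7 of them were tested by exact permutation of the libraries, two-sided, where 4 against 4 libraries can reach a p of 0.0286 at best. The log2 ratio of Sun5 to Sun1 was -5.16, -4.59, -4.96 and -5.46 in spermatocyte libraries and -0.16, 0.33, 0.49 and 0.45 in spermatid libraries. Sun5 counts were thus above those of Sun1 in 3 of the 4 spermatid libraries and in no spermatocyte library, with a difference of 5.32 between the group means (exact permutation p = 0.029, adjusted over the 7 ratios 0.033). The ratio of Lmnb2 to Lmnb1 went from a mean of -2.15 to 4.20, and that of Lmna to Lmnb1 from -0.96 to 1.44. The ratio of Sun3 to Sun1 went from -3.71 to -0.89, that of Sun5 to Sun3 from -1.33 to 1.16, and that of Sun2 to Sun1 from -2.20 to -4.49. For these 6 ratios the groups did not overlap and the exact permutation p was the same, 0.029, which is the smallest possible one. Among all tested models 66.4% had no overlap between the groups in their own values, and no such share was computed for ratios. The ratio of Syne2 to Syne1, with both models summed, overlapped between the groups, with means of 3.87 and 2.90 (exact permutation p = 0.086).

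**Figure D4:**
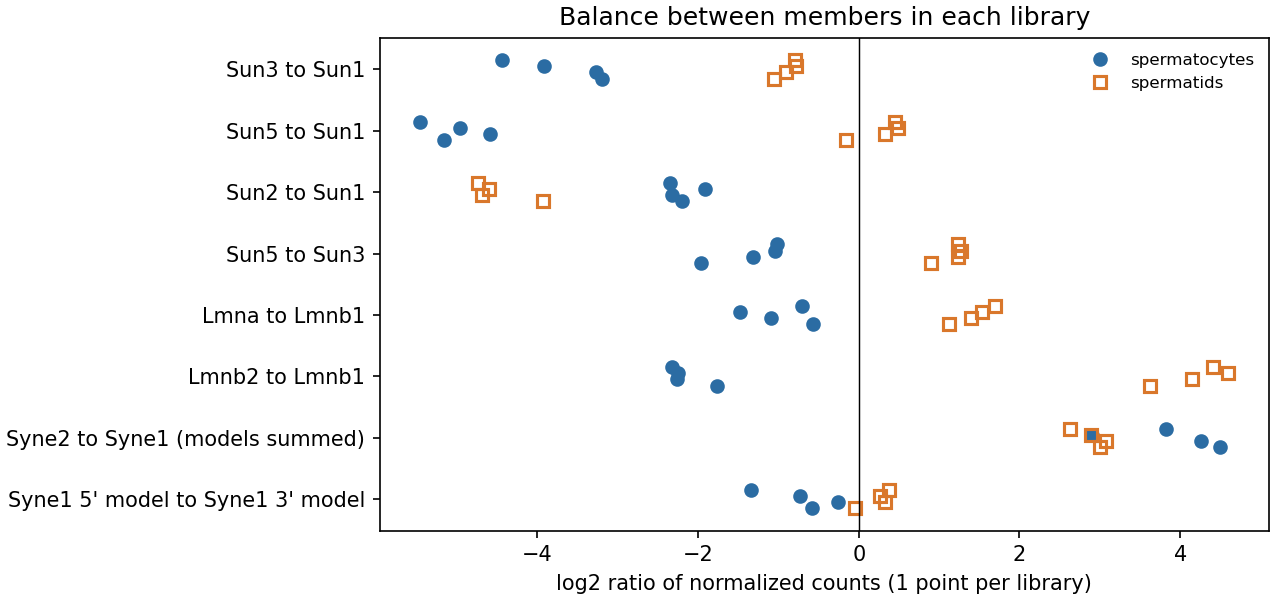
Each point is the log2 ratio of normalized counts of 2 members in 1 library (filled circles, spermatocytes; open squares, spermatids). Spermatids lie to the right of spermatocytes for Sun3 to Sun1, Sun5 to Sun1, Sun5 to Sun3, Lmna to Lmnb1 and Lmnb2 to Lmnb1, to the left for Sun2 to Sun1, and overlap them for Syne2 to Syne1.

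Other genes of the same machinery were read from 6 lists. Of the 5 other SUN and KASH genes, 2 were higher, Spag4 and Syne3, and none was lower, with a median log2 fold change of 0.27. Of 11 genes of meiotic telomere attachment tested, 5 were lower and none was higher, with a median of -0.74. Cdk2, a kinase found at meiotic telomeres, went from 6938 ± 949 to 748.5 ± 107 normalized counts (SD, n = 4 each), a log2 fold change of -3.21 ± 0.18 (SE, limma adjusted p = 1.2e-08). Majin, which ties telomeres to the inner nuclear membrane, went from 1010 ± 204 to 227.1 ± 51.5, with a log2 fold change of -2.15. The other 3 lower genes were Terb2, the bridge to Majin, at -1.72, and the telomere proteins Terf2 at -1.69 and Terf2ip at -1.43. Sun1, to which these proteins link telomeres, had its uncalled log2 fold change of 0.07, while Sun2 was lower.

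Of 18 genes of the inner nuclear membrane and of chromatin tethers tested, 5 were higher and 3 lower, with a median of -0.32. Banf2, a relative of the DNA-binding barrier factor Banf1, went from 81.4 ± 21.7 to 2747 ± 456 normalized counts, a log2 fold change of 5.08 ± 0.25 (SE, limma adjusted p = 4.6e-09), while Banf1 itself was at -0.89, under the fold threshold. Nrm, the gene of nurim, a membrane protein of the nuclear envelope, went from 390.9 ± 81.8 to 9761 ± 1426, with a log2 fold change of 4.65. Emd, the gene of emerin, which binds lamin A, Lemd1 and Tor1aip1 were the other 3 higher genes, at 3.34, 3.56 and 3.14. Lbr, the lamin B receptor, was lower, with 1472 ± 199 and 228.5 ± 93.6 normalized counts (SD, n = 4 each) and a log2 fold change of -2.76 ± 0.28 (SE, limma adjusted p = 2.3e-06). Lemd2, another LEM-domain protein that binds lamins, was at -2.26, and Ankle2 was at -1.58.

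Of 7 genes on the lamin maturation list, not all of which process prelamins, 2 were lower and none was higher, with a median of -0.41. They were Rce1, the protease that trims farnesylated proteins, at -1.81, and Icmt, the enzyme that methylates the trimmed end, at -1.49. Zmpste24, the protease that completes lamin A, had a log2 fold change of 0.64 (limma adjusted p = 0.054), which was not called. Of 12 manchette genes 3 were higher and none was lower, with a median of 0.54. Clip1, a protein of microtubule plus ends, was at 4.15, and Hook1, a microtubule-binding protein whose loss in mice disturbs the manchette, was at 2.42. Of 9 genes of head-tail coupling, the process in which SUN5 acts, 6 were higher and 2 lower, with a median of 2.68. Spatc1l was at 4.92 and Actl7a at 4.89, and the centrosomal genes Cntrob at -3.00 and Cntln at -1.42 were the 2 lower ones. Against 32.5% of all tested models called higher and 29.8% called lower, the share called higher was 66.7% in the coupling list and 25% in the manchette list, and the share called lower was 45.5% in the telomere list. No test compared these lists with other genes. In these lists, Terb2, Terf2, Terf2ip, Emd, Lemd1, Tor1aip1, Ankle2, Banf1 and Zmpste24 were named after their values were seen.

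**Figure D5:**
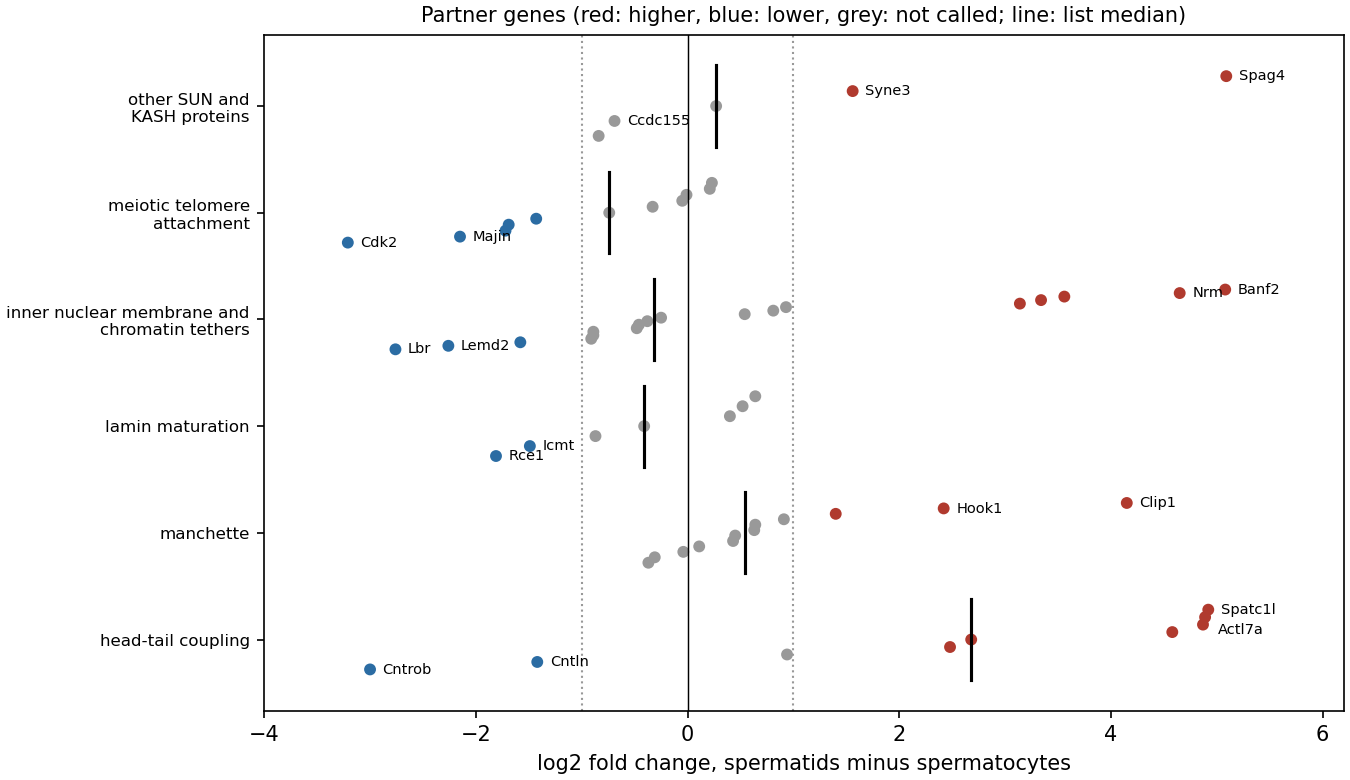
Each point is a tested gene of one of the 6 lists, placed by its log2 fold change from spermatocytes to spermatids (red, higher; blue, lower; grey, not called), with a vertical bar at the list median and dotted lines at a log2 change of 1 in size. The telomere list has 5 blue points and no red one, and the coupling list has 6 red and 2 blue points.

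For each member the genes with the most similar profile were sought among 12260 named models with a mean of at least 100 normalized counts, by the root mean square difference of log2 values over the 8 libraries after centring. For Sun5 they were Ttc23l at 0.052 and Pdilt, a testis-specific protein disulfide isomerase, at 0.082. For Lmnb2 they were Frat1 at 0.060 and Ccdc169 at 0.067. For Sun3 they were Arih1 at 0.109 and Sypl at 0.137. Among the members that were lower, Lmnb1 was nearest to Fam53a at 0.078 and Rad9b at 0.085, and Sun2 to Fbxl18 at 0.108 and Wdr6 at 0.116. Lmna was nearest to Pacsin2 at 0.110 and Rab11fip4 at 0.119. Sun1 was nearest to Otub1 at 0.069 and Arhgef12 at 0.073, and Syne2 to Bcl2l1 at 0.077 and Pcnx at 0.081. The Syne1 models had less close neighbours, Scn8a at 0.159 and Zfp536 at 0.175 for the 5' model and Fut10 at 0.166 and Dock3 at 0.173 for the 3' model. These distances describe 8 libraries in 2 groups, so a gene with the same fold change and a small spread is near by construction.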

How the data were processed

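Per the labels, DNase-treated RNA was made into stranded libraries of polyadenylated RNA (TruSeq Stranded mRNA). The deposited signal is, per gene model, the number of reads over the size factor of its library. Normalization with DESeq is announced by the table itself and mm10 by its header. STAR 2.4.0, SAMtools, Picard, FastQC and DESeq appear in the submitters' processing notes. How reads were counted and filtered is not given in the sources used here. In every library all values above 0 lay within 10% of a fixed step from whole reads, so reads could be recovered. The table has 8 further per-sample columns, not used here.

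The members and gene lists were chosen with earlier results of these data known, Sun5 among them. The filter kept 28735 models, those that reached 10 normalized counts in 4 or more libraries. They were tested as log2(normalized count + 1) with limma 3.58.1 (trend and robust moderation, R 4.3.3) without covariates, and the added 1 understates changes of low genes. Named partners are the 2 largest called rises and falls of each list with Spag4, Ccdc155 and Syne3, and others are marked in the text. The value of 1 list gene is not reported here. Of 130 list genes 126 were matched, 5 by synonym. The longest coding GENCODE vM21 transcript of each gene was taken, and its length is that of the part lying inside the model. Libraries of a group differed beyond sampling noise (chi-square per degree of freedom at least 11.2). The test was also run on simulated counts, and its outcome there is not reported here. Reads without molecular identifiers are not independent molecules, so floors cover counting error alone. Alternatives were other pseudocounts, filters and scalings, a GC correction, plain limma, edgeR 4.0.16 and DESeq2 1.42.0 on whole reads, and left-out libraries.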

Additional observations from a re-analysis of the deposited data

Results flagged for a closer look

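Lmnb1 in spermatid library 1 stood apart from the other libraries of its group, with 1086 normalized counts against 832.6 to 872.2 in the other 3. Its gap to the nearest library was 0.844 of the whole range, above Dixon's 95% critical value. It was the only one of 54 groups of 4 libraries examined, 2 per gene or gene list, and chance flags about 1 in 20 groups. Spermatid library 1 was also the highest of its group for Sun2, with 907.2, and for 4 of the summed marker lists of other cells. These were Sertoli cells with 8562 against 2753 to 7313, spermatogonia with 5255 against 2304 to 2855, Leydig cells with 1161 against 195 to 823, and macrophages and blood with 5803 against 2855 to 4555. For endothelium it had the lowest sum, 1359 against 1526 to 1623. The peritubular myoid sum was also lowest there, 17592 against 17602 to 23959, but Actg2 alone made up 15615 of it. By mean log2 level the myoid list was highest in this library, at 9.32 against 8.59 to 8.85. Of the spermatocyte markers, Sycp1, Sycp3 and Dmc1 were highest in this library, at 14192, 11243 and 1800. The sum of the spermatocyte list was lowest there, at 198632 against 239834 to 279065, but Hspa2 alone made up 150554 of it. By mean log2 level that list was highest in this library, at 11.99 against 11.74 to 11.89. The part of any of these cells in the Lmnb1 value was not tested. Without that library the log2 fold change of Lmnb1 was -1.41.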

How the results depend on the processing

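Each fold change was recomputed under 22 alternatives. Lmnb2 (4.55 to 5.40), Sun5 (4.92 to 5.70), Sun3 (2.45 to 2.99) and Sun2 (-2.66 to -1.85) kept their calls under all 22, and Lmnb1 (-1.76 to -0.97) kept its call under 21. Members called higher numbered 3 with equal total reads and 3 with quantile normalization, where Lmna (0.64 and 0.73) and the 5' model of Syne1 (0.76 and 0.80) lost their calls; relative to the median of all models these were 1.08 and 1.10, and 1.20 and 1.16. Members called lower numbered 1 with GC correction, where Lmnb1 was at -0.97 (limma adjusted p = 5.4e-04), or -1.35 relative to the median of all models. That correction covers 17975 models and moved the median of all models to 0.383, while in these models without correction, an alternative chosen after seeing the data, the median was 0.251. Lmna also lost its call, at 0.99, without spermatocyte library 2. All models called lower, 8563, became 12890 with no filter and 5470 with a filter of 50 normalized counts. They numbered 3792 in the models with a known GC content and 3458 with GC correction. Each of these settings tested a different set of models from the main fit, and the last 2 shared the same 17975. The split of all models was 7989 higher and 10747 lower with equal total reads. It was 6748 higher and 3458 lower with GC correction. EdgeR called 9210 higher and 8734 lower, and DESeq2 9182 and 8712. Of the 7 ratios, 0 passed at adjusted p below 0.05 with any 1 library left out, where the smallest exact p is 0.057, and 0 passed without spermatocyte libraries 3 and 4, where it is 0.13; all kept their sign. No paired analysis was possible because the labels give no replicate numbers. The Syne1 models had the fewest normalized counts of the members in both cell types, and the short lamin transcripts could not be told apart at the level of gene models.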
